A study of Mus musculus with 5 samples.

Results

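REST silences neuronal genes outside the nervous system. It is a repressor that binds DNA through an array of zinc fingers, at a sequence known as RE1. The sequence has a left and a right arm, each contacted by a part of the zinc-finger array, and REST recruits histone deacetylases and demethylases through its cofactors. In the pancreas, endocrine cells share many genes of secretion and excitability with neurons, and these genes carry RE1 elements too. The sites described here are REST peaks that were called in both libraries of mouse embryonic pancreas at day E13.5 and in none of the 3 libraries made at day E18.5. There were 706 of them among 1849 sites of the series, or 38.2% of all sites. They made up 59.7% (exact 95% interval 56.8 to 62.5) of the 1183 sites that both E13.5 libraries shared.

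The data were peak lists from ChIP-seq with the monoclonal antibody 12C11 on untreated wild-type mouse pancreas of a mixed strain with C57BL/6. Both E13.5 libraries came from pools of 4 to 6 pancreases, and each of the 3 E18.5 libraries from a pool of 3 to 4. Whole organs were used, so REST-bound chromatin of all their cell types is mixed, and fewer cells with REST on a site and less REST on it per cell cannot be told apart. On assembled chromosomes the E13.5 lists held 1396 and 1329 peaks, and those of E18.5 held 530, 414 and 223. Read depth is unknown, so a site without an E18.5 peak may still have been bound.

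The sites were chosen by those calls. They were compared with the 477 sites of both E13.5 libraries that also had an E18.5 peak (sites called again), and with 341 sites called in a single E13.5 library and in no E18.5 library. Of the sites called again, 236 had a peak in 1 E18.5 library, 131 in 2 and 110 in all 3. Sites are not replicates, and tests over them describe these lists and not the stages in general.

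The RE1 consensus derived from all sites of both E13.5 libraries is shown first, followed by elements of E13.5-only sites that stand for the best-scoring sites and for genes described further on. Elements run 5′ to 3′ on the strand of the match. Capitals mark bases equal to the consensus, and position N was not compared.
RE1 consensus: TTCAGCACCATGGACAGCNCC
Crhr2, intron, chr6:55058501-55058521, plus strand, 3 mismatches: TTCAGCACCAcGGACAGCaaa
Col5a3, intron, chr9:20617633-20617653, minus strand, 2 mismatches: aTCAGCACCATGGACAGggCC
Ano4, intron, chr10:88687464-88687484, plus strand, 2 mismatches: TTCgGtACCATGGACAGCgCC
Tmem179, intergenic, chr12:113749458-113749478, plus strand, 5 mismatches: gTCAGtACCgcGGACAGttCC
Neurog3 domain, chr10:61600959-61600979, minus strand, 2 mismatches: TTCAGCACCATGGtCAGggCC
Fev domain, chr1:74938282-74938302, minus strand, 2 mismatches: aTCAGCACCAcGGACAGCaCC
Hnf4a, intron, chr2:163390579-163390599, minus strand, 3 mismatches: gcCAGCACCAaGGACAGCgCC
Myt1, intron, chr2:181499505-181499525, minus strand, 4 mismatches: aTCAGCACtcTGGACAGCgCt
Onecut1, intron, chr9:74716353-74716373, plus strand, 4 mismatches: gTCAGgACCcTGGACAGagCC
Ptf1a domain, chr2:19350792-19350812, plus strand, 3 mismatches: TTCAGCACCAaGGcCAGCgCa
Sst, intron, chr16:23890418-23890438, plus strand, 4 mismatches: TTCAGCACCggGGtCAGCaaC
Ptprn, intron, chr1:75259730-75259750, minus strand, 1 mismatch: TTCAGaACCATGGACAGCgCC
Stmn3, UTR, chr2:181048906-181048926, minus strand, 3 mismatches: gcCAGCACCATGGcCAGCaCC
Nrxn3 domain, chr12:89947952-89947972, minus strand, 2 mismatches: TTCAGCACCAcGGAgAGCtCC

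All coordinates are of mm9 and are counted from 1. The Neurog3 element is shown in 101 bases of its surroundings, read on its own strand from chr10:61600919-61601019, with the element in capitals, since Neurog3 is the factor that commits progenitors to the endocrine fate.
Neurog3 domain: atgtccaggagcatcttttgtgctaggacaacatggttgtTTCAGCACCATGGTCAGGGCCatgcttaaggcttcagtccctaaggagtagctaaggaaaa

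Most E13.5-only sites held an RE1 element, as did the sites called again, but the elements of E13.5-only sites lay further from the consensus. A match with at most 5 mismatches was found within the central 500 bp of 544 of 706 E13.5-only sites (77.1%, 73.8 to 80.1) and of 361 of 477 sites called again (75.7%, 71.6 to 79.5). This difference did not pass the test (Fisher exact test, odds ratio 1.08, adjusted p = 0.714). With at most 4 mismatches allowed, the direction turned and E13.5-only sites held an element less often, at a difference of -6.93 percentage points (Fisher exact test, adjusted p = 0.0243). Windows 10 kb to either side of the sites held a match in 0.708% (10 of 1412). Sites of a single E13.5 library held one less often than E13.5-only sites, at 56.6% (193 of 341; Fisher exact test, adjusted p = 6.11e-11). When the lists were limited to the upper 75% of scores that difference fell to 6.59 percentage points (Fisher exact test, adjusted p = 0.0799).

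The matches of E13.5-only sites had 3.48 ± 1.02 mismatches (mean ± SD, n = 544 elements), against 3.03 ± 0.99 (n = 361) in sites called again. Only 14 E13.5-only elements had 1 mismatch and 71 had 2, while 202 had 3, 154 had 4 and 103 had 5. Elements with 3 or fewer mismatches were present in 40.7% of E13.5-only sites and in 53.0% of sites called again. The median distance between element and site centre was 11 bp in E13.5-only sites and 9 bp in sites called again.

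**Figure D1:**
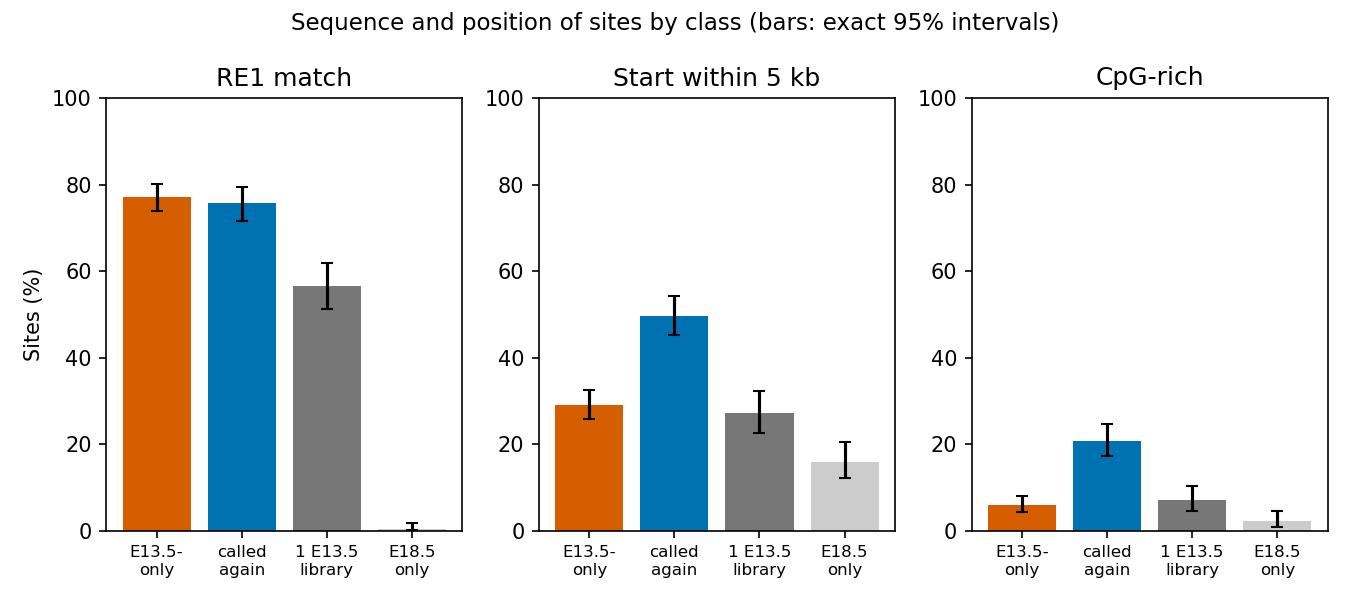
Share of sites with an RE1 match, with a transcription start within 5 kb and with CpG-rich sequence, in 4 classes of sites; bars give the percentage and error bars the exact 95% interval. E13.5-only sites are level with sites called again for RE1 (77.1% and 75.7%) and below them for starts (29.0% and 49.7%) and CpG-rich sequence (5.95% and 20.8%).

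Departures from the consensus were not spread evenly along the element. Positions are counted from 1 at the 5′ end of the consensus. Position 6, in the left arm, had the consensus base in 60.1% of E13.5-only elements and in 73.1% of elements of sites called again (Fisher exact test, adjusted p = 0.000748 over 20 positions). In the right arm, position 15 had it in 80.7% against 90.3% (Fisher exact test, adjusted p = 0.000748) and position 18 in 65.4% against 76.7% (adjusted p = 0.00189). Position 11, in the gap between the arms, went the other way, at 56.4% against 45.7% (Fisher exact test, adjusted p = 0.00883). The other 16 positions did not pass the test. Positions 7 and 8 had the consensus base in 100% and 99.8% of the E13.5-only elements. The test by position was chosen after the data were seen, and positions of an element that passes a limit on mismatches are not independent of each other.

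**Figure D2:**
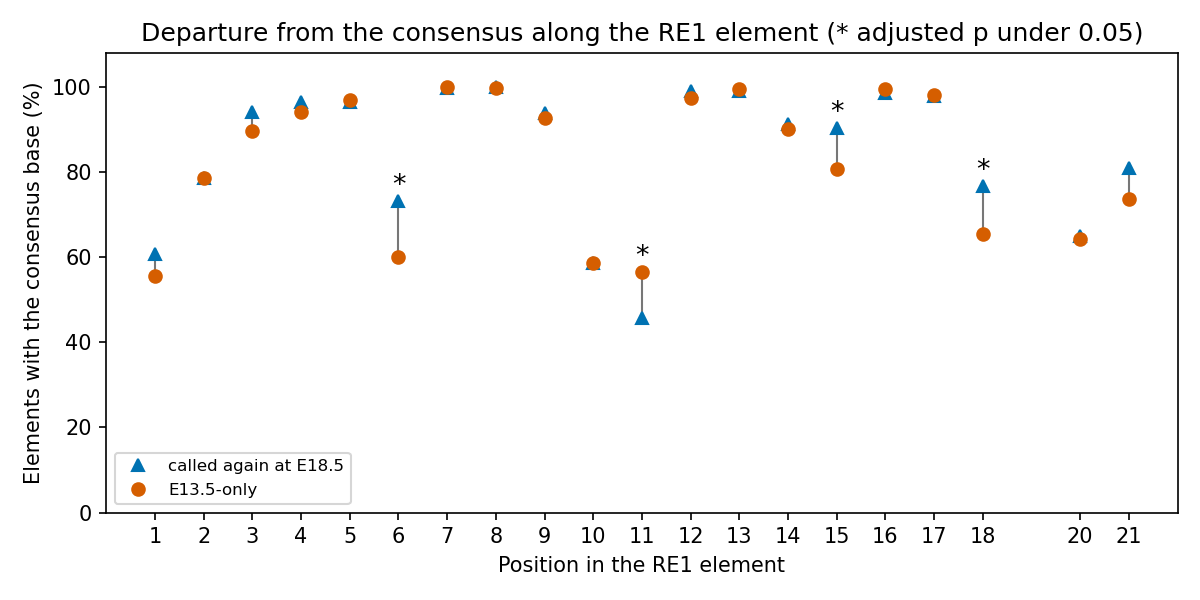
Percentage of RE1 elements with the consensus base at each compared position (x axis), for 544 E13.5-only elements (circles) and 361 elements of sites called again (triangles); stars mark adjusted p under 0.05. Circles lie below triangles at positions 6, 15 and 18 and above at position 11.

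The 162 E13.5-only sites without an RE1 match were not without sequence resemblance to it. A left or right arm of the element with at most 1 mismatch was present in 149 of them (92.0%), against 22.5% of the windows 10 kb away. The right arm was found in 142 and the left arm in 105. In sites called again without a match, arms were as frequent, at 107 of 116 (92.2%; Fisher exact test, adjusted p = 1). Single-library sites without a match held one in 83.8%, a difference that did not pass the test after adjustment (Fisher exact test, adjusted p = 0.0691), although 7 of the alternatives tried brought it past the threshold (adjusted p of 0.000704 to 0.0475).

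Arms often came as a pair on the same strand, set further apart than the 2 bases of the consensus. Such a pair at another spacing was held by 65 of the 162 E13.5-only sites without a match (40.1%, 32.5 to 48.1) and by 4 of 1412 windows 10 kb away (0.283%). In 57 of the 65 the gap measured 7 to 11 bp, with 8 bp the most frequent (26 sites), and 7 sites had a gap of 0 or 1 bp. A gap of 8 bp was also the most frequent in sites called again without a match (19 sites). Pairs were more frequent in sites called again without a match, at 67 of 116 (57.8%; Fisher exact test, odds ratio for E13.5-only sites 0.490, adjusted p = 0.00667 over 4 tests chosen after the data were seen). They were less frequent in single-library sites without a match (18.9%; Fisher exact test, adjusted p = 0.000127). With RE1 matches and pairs counted together, 609 E13.5-only sites (86.3%) and 428 sites called again (89.7%) were covered (Fisher exact test, adjusted p = 0.0867).

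Among E13.5-only sites without an RE1 match, the 6 best-scoring with a gap of 7 to 11 bp are shown with both arms in capitals and the bases between them in lower case.
Clvs1, non-coding exon, chr4:9196701-9196728, plus strand, gap 9 bp: TTCAGCACTtcggcgcgtGGACAGCTCC
Slc39a3, intergenic, chr10:80500272-80500300, minus strand, gap 10 bp: TTCAGTACCacgcgaccctGGACAGCTCC
Yif1a, intergenic, chr19:5087995-5088020, plus strand, gap 7 bp: TTCAGCACCagccgacGGACAGCACC
Cplx3, UTR, chr9:57453999-57454026, plus strand, gap 9 bp: TTCAGCACTaagtcccggGGACAGCTCC
Gpr26, intron, chr7:139152418-139152444, minus strand, gap 8 bp: ATCAGCACCacgggggtGGACAGCTCC
Sntg1, UTR, chr1:9288660-9288687, minus strand, gap 9 bp: TTCAGCACCggaagggatGGACAGCGTC
In 5 of the 6 the centre of the site lay within 1 kb of a transcription start, from 0.012 kb at Sntg1 to 0.557 kb at Yif1a, and at Gpr26 the nearest start was 5.71 kb away. Cplx3 encodes a complexin, which clamps and triggers vesicle fusion, and Slc39a3 a zinc transporter.

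**Figure D3:**
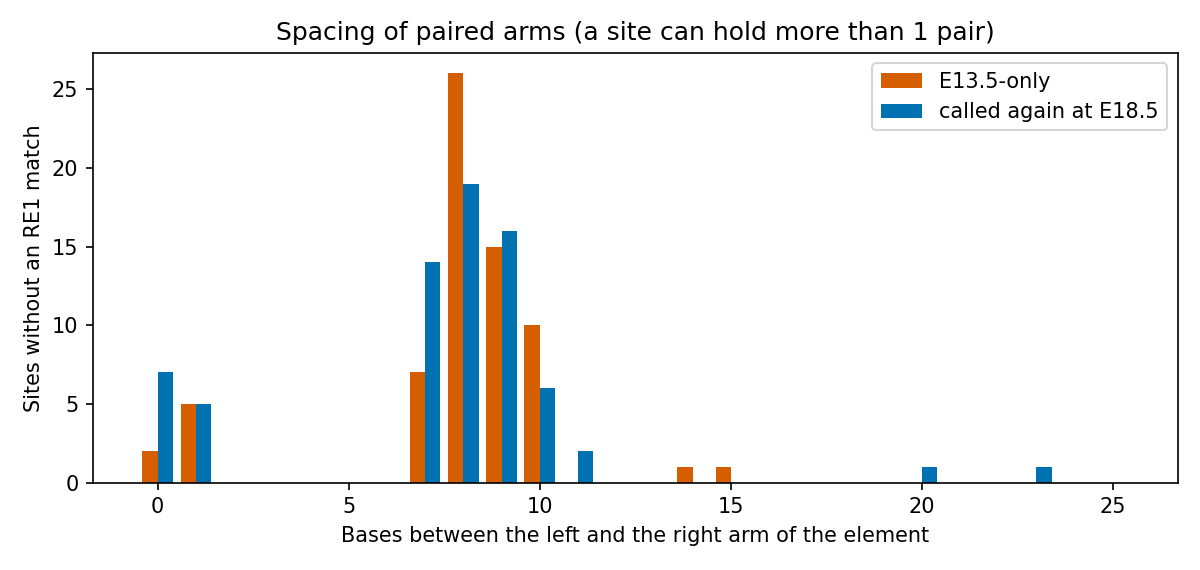
Number of sites without an RE1 match that hold a left and a right arm on the same strand, by the number of bases between the arms, for E13.5-only sites and sites called again. Most sites lie at gaps of 7 to 10 bp, and both classes peak at 8 bp, with 26 E13.5-only sites and 19 sites called again.

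E13.5-only sites were distal more often than sites called again. A transcription start lay within 5 kb of 205 E13.5-only sites (29.0%, 25.7 to 32.5) and of 237 sites called again (49.7%, 45.1 to 54.3; Fisher exact test, odds ratio 0.414, adjusted p = 3.69e-12). The median distance to the nearest start was 16.8 kb against 5.24 kb. In the 110 sites called again in all 3 E18.5 libraries it was 1.27 kb, and 63.6% of these had a start within 5 kb. Single-library sites were placed much like E13.5-only sites, with 27.3% within 5 kb (Fisher exact test, adjusted p = 0.714).

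The centre of an E13.5-only site fell in an intron in 309 cases and between genes in 337. It fell in a UTR in 31, in a coding exon in 19 and in an exon of a non-coding transcript, which can belong to a coding gene, in 10. Coding exons held 2.69% of E13.5-only sites and 4.82% of sites called again, and UTRs held 4.39% and 10.1%.

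CpG-rich sequence, with over 50% GC and an observed over expected CpG ratio above 0.6, was found at 42 E13.5-only sites (5.95%) and 99 sites called again (20.8%; Fisher exact test, odds ratio 0.242, adjusted p = 2.04e-13). In single-library sites it was 7.04% (Fisher exact test, adjusted p = 0.714) and in windows 10 kb away 0.992%. Mean GC content was 48.7 ± 7.03% (SD over 706 sites) against 53.1 ± 9.50% in sites called again. Among E13.5-only sites, those without an RE1 match were promoter-proximal in 40.1% and CpG-rich in 13.6% of cases, against 25.7% and 3.68% of those with one.

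Sites called again also had higher E13.5 scores, so shares were compared within quintiles of the mean score percentile. E13.5-only sites remained promoter-proximal less often (Mantel-Haenszel odds ratio 0.650, exact conditional test, adjusted p = 0.00916) and CpG-rich less often (odds ratio 0.422, exact conditional test, adjusted p = 0.00136), while the RE1 share again did not pass (odds ratio 1.24, exact conditional test, adjusted p = 0.247). In the lowest quintile 20.7% of 217 E13.5-only sites and 33.3% of 21 sites called again had a start within 5 kb. In the highest the shares were 43.5% of 23 and 60.4% of 212. The gap was smallest in the third, at 35.5% of 155 and 39.5% of 81, where 9.03% and 9.88% were CpG-rich. With only the 223 best-scoring peaks of each library kept, 19 E13.5-only sites were left, and neither difference passed the test (-11.1 and -19.1 percentage points; Fisher exact test, adjusted p = 1 and 0.816). Mismatches were higher in E13.5-only sites in each quintile, from 3.66 against 3.19 in the lowest to 3.61 against 3.03 in the highest, with the smallest gap in the fourth (3.04 against 2.99).

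Short letter strings read by other factors were counted on both strands of the 500-bp windows. AGATAA, the core of GATA factor sites, was present in 22.6% of E13.5-only sites with an RE1 match and in 13.3% of sites called again with one, with 25.2% of windows 10 kb away. Without a match the shares were 9.88% and 11.2%. GGGCGG, read by SP and KLF factors, was present in 13.2% and 25.8% of sites with a match and in 48 of 162 and 58 of 116 of those without, with 6.73% of windows 10 kb away. In sites with a match, TGTTTAC (FOXA) was present in 5.51% and 3.88%, with 7.37% of windows 10 kb away. The same shares, in that order, were 16.4%, 12.2% and 18.8% for ATCAAT (ONECUT). For CAGCTG (an E-box) they were 28.7%, 26.3% and 22.7%. These shares were not tested.

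Scores are described without a test, since calls depend on them. E13.5-only sites had scores of 4 to 38 in library A, with a median of 12, and of 6 to 45 in library B, with a median of 15. Sites called again had medians of 23 and 27. The middle 50% of scores ran from 10 to 16.75 in A and 12 to 20 in B for E13.5-only sites, against 17 to 30 and 20 to 36 for sites called again. In the upper 10% of the lists were 10 E13.5-only sites and 134 sites called again in A, and 8 and 121 in B. Both libraries ordered the E13.5-only sites alike to a degree (Spearman rho 0.604 over 706 sites that share their 2 libraries). Median peak lengths within E13.5-only sites were 154 bp in A and 460 bp in B. No source used here gives the unit of the score.

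**Figure D4:**
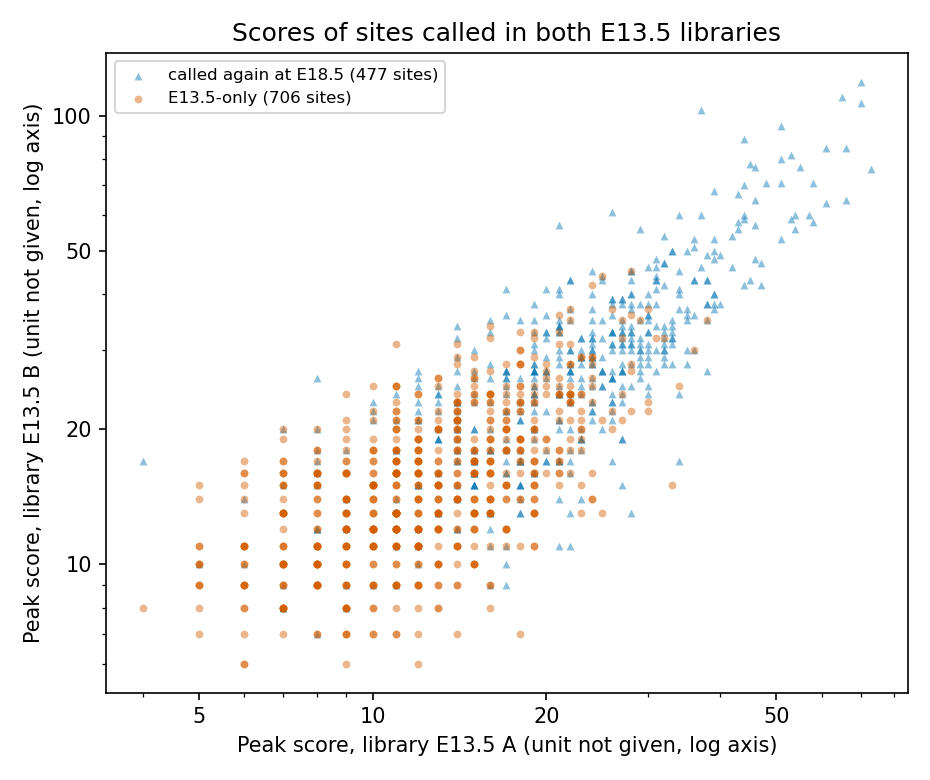
Peak score in library E13.5 A (x, log axis) and E13.5 B (y, log axis) for each of the 706 E13.5-only sites (circles) and 477 sites called again (triangles). E13.5-only sites fill the lower left, with medians of 12 and 15, and reach no higher than 38 and 45.

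Few sites lay at the edges of the overlap rule. Of the 706 E13.5-only sites, 704 were counted when an overlap had to cover 50% of the shorter peak. With no E18.5 peak allowed within 500 bp, 702 were counted. The members closest to an E18.5 peak were in Vgf (432 bp), Drd2 (436 bp) and Zfml (466 bp), and 4 members lay within 500 bp of one. The sites left out by the smallest overlap were near Fam196b, Pde4d and Insm1, which shared 121, 149 and 157 bp with a single E18.5 peak of score 3, 6 and 6. The members of lowest rank, near Zfml, Gm805 and Gm15338, had scores of 5 to 7 in both libraries.

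The 12 E13.5-only sites of highest mean percentile lay nearest to the starts of Gm14292, Crhr2, Paxip1, Col5a3, Mir598, Hs3st2, Ano4, Clvs1, Zc3h13, Tmem179, Srrm3 and Gm12933. Their scores ran from 24 to 38 in library A and from 30 to 45 in library B. The first site, chr2:178935156-178935707, scored 38 and 35, lay between genes 23.3 kb from Gm14292 and had no element with fewer than 6 mismatches. The site in Crhr2, which encodes a receptor of the corticotropin-releasing hormone family, scored 28 and 45. Those at Hs3st2 (0.422 kb), Clvs1 (0.218 kb), Tmem179 (0.095 kb) and Srrm3 (0.008 kb) lay next to a start. The Srrm3 site scored 26 and 37. Srrm3 encodes a splicing factor of neuronal microexons and also had a site called again. The best element of its E13.5-only site had 8 mismatches.

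Genes were given sites by domains that run from 5 kb upstream to 1 kb downstream of a start and extend to the neighbouring gene, by at most 1 Mb. E13.5-only sites fell in the domains of 991 of 22225 protein-coding genes (4.46%), and 828 genes (3.73%) had such sites and no site called again. A start within 5 kb of an E13.5-only site was held by 173 genes (0.778%). Most sites (541) were given to 2 or more genes, so a gene named for a distal site may share it with its neighbour. For the list genes that follow, distances are to the outermost start of the gene, and other annotated starts can be nearer.

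Of 30 endocrine transcription factors, 6 had an E13.5-only site, another 6 had sites called again alone, and none had both kinds. Over all protein-coding genes, 828 had E13.5-only sites alone, 529 had sites called again alone and 163 had both kinds. Fev, a factor of endocrine precursors and serotonergic neurons, had 2 E13.5-only sites. The weaker, with scores of 8 and 16, was also given to its neighbour Cdk5r2 and is counted again there. The better, chr1:74938030-74938601, scored 20 and 28, lay 6.31 kb upstream in an exon of a non-coding transcript of Cryba2, and holds the element shown above. The Neurog3 site, chr10:61600711-61601237, lay 5.12 kb downstream of the start, in an intron of 2010107G23Rik. It scored 7 and 13, near the bottom of both lists, with an element of 2 mismatches.

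Hnf4a, a nuclear receptor, had an intronic site with scores of 19 and 23, 58.0 kb from its outermost start and 14.8 kb from its nearest one. Onecut1, a progenitor and duct factor, had one with 19 and 13, 6.66 kb from its outermost and 2.09 kb from its nearest start. Myt1, a zinc-finger factor expressed with Neurog3, had one at 1.48 kb with scores of 11 and 11. The Irx2 site lay 274 kb away, between genes, and scored 14 and 19. Neurod1, Neurod2, Insm1, St18, Irx1 and Scrt1 had sites called again alone. Within 5 kb of a start, 2 of the 30 genes had an E13.5-only site.

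Of 31 genes of secretory granules and exocytosis, 5 had an E13.5-only site (16.1%) and 14 had sites called again alone. The Ptprn site, in a gene for a granule membrane protein, was 1.03 kb from the start, scored 22 and 25 and had the element with 1 mismatch. Pcsk2, the proconvertase that processes proinsulin and proglucagon, had 2 E13.5-only sites and none called again; the better lay 0.796 kb from its start, scored 14 and 31 and had no match. Syt4, a synaptotagmin, had a site in its coding exon at 0.230 kb that scored 13 and 26. The Vgf site, 0.942 kb from its start, scored 11 and 18, and the Rph3a site, 59.4 kb upstream, scored 20 and 26. Ptprn, Vgf and Rph3a also had sites called again.

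Of 20 hormone and beta-cell genes, 3 had an E13.5-only site and none had sites called again alone. Sst, encoding somatostatin, had one in its intron at 0.505 kb with scores of 12 and 11. The site in the Glp1r domain lay 37.0 kb from its start with scores of 16 and 19. The one in Tph2, a serotonin synthesis gene, lay 41.2 kb from its start with scores of 15 and 17. Tph2 also had a site called again.

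Neuronal genes held most of the list genes with E13.5-only sites, and many neuronal genes had sites called again. The neuronal lists were among the longest, and all lists were chosen with earlier results of these data known. Their shares are therefore not independent evidence. Over all 22225 protein-coding genes, 991 had an E13.5-only site, 529 had sites called again alone and 163 had both kinds. Among 41 genes of neuronal structure and adhesion 18 had one (43.9%), and 13 of these had no site called again. Srrm4, a neural splicing activator, had 4, the best 0.296 kb from its start with scores of 24 and 29. Stmn3, a microtubule regulator, had 2, the better at 0.277 kb with 21 and 33. Cdh13 had 4 over 617 kb, the best with 22 and 37, 975 kb from its outermost and 18.6 kb from its nearest start. The best site of Nrxn3, a presynaptic adhesion gene, lay 13.4 kb upstream and scored 19 and 25. That of Syn2, a synapsin, lay 44.1 kb from its start and scored 17 and 19.

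Of 37 transmitter receptor genes, 15 had an E13.5-only site (40.5%), 10 of them with no site called again. Grik3, a kainate receptor, had 5, the best between genes and 345 kb from its outermost start, with scores of 27 and 24. Drd2, a dopamine receptor, scored 19 and 29, Htr1a, a serotonin receptor, 23 and 18, and Chrm4, a muscarinic receptor, 14 and 21, all within 1 kb of a start. Grik3 and Drd2 also had a site called again. Of 34 ion channel genes, 12 had one (35.3%). Cacna1a scored 24 and 26, 66.3 kb from its outermost and 39.2 kb from its nearest start, and also had a site called again. Scn3b scored 13 and 20 at 0.532 kb and Kcnt1 11 and 22 at 0.295 kb. Of 23 neural transcription factors, 5 had one, among them Camta1 with 6, Myt1l with 3 and Pou4f2 with 2. Camta1 also had 2 sites called again. Within 5 kb of a start the counts were 7 of 41 structural genes, 6 of 37 receptors, 4 of 34 channels and 4 of 23 factors. Sites called again alone were held by 10 structural genes, 8 receptors, 10 channels and 8 factors of these lists. Both kinds of site were held by 5, 5, 5 and 2.

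Of 17 genes of Cdk5 and MAPK signalling and growth, 4 had an E13.5-only site. Mapk11, a p38 kinase, had one 0.680 kb upstream with scores of 17 and 14. Cdk5r2, an activator of Cdk5, had one at 3.31 kb with 8 and 16, which is the weaker Fev site. The Ntrk3 site, 80.4 kb from its outermost start, scored 10 and 16. The site given to Cdk5r1 scored 22 and 24 but lay 137 kb away, in an intron of Myo1d, and had no match. Cdk5r1 also had a site called again.

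In lists of other cells the share with an E13.5-only site was 10% for acinar genes (2 of 20), 10% for endothelial and blood genes (1 of 10) and 8.33% for housekeeping genes (1 of 12), beside 4.46% of all protein-coding genes. Ptf1a, a factor of progenitors and acinar cells, had an E13.5-only site 16.4 kb upstream that scored 23 and 13, and Gp2 had one 103 kb away that scored 13 and 16. None of 16 duct and progenitor genes, 13 mesenchymal genes or 12 genes for REST and its cofactors had one, although Onecut1 and Ptf1a, which progenitors also use, were counted in the endocrine and acinar lists. Emcn, an endothelial gene, had a site 326 kb away, and the housekeeping gene Rps18 one at 16.8 kb. Of 26 genes that the study itself picked at E13.5, 7 had an E13.5-only site, 8 had sites called again alone and 11 had neither. These counts are not independent evidence.

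**Figure D5:**
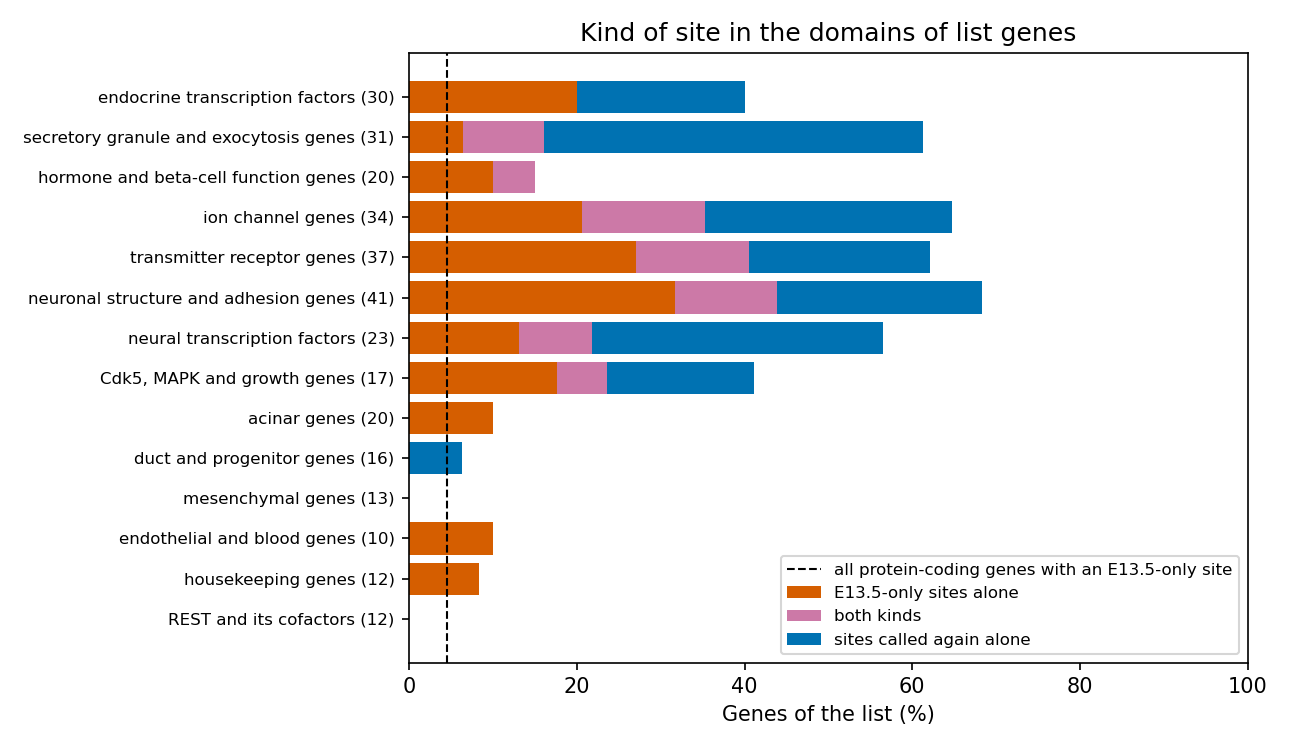
Percentage of the genes of each list (number in brackets) whose domain holds E13.5-only sites alone, both kinds of site, or sites called again alone; the dashed line marks 4.46%, the share of all protein-coding genes with an E13.5-only site. Neuronal structure, transmitter receptor and ion channel lists reach 43.9%, 40.5% and 35.3% with an E13.5-only site, and duct, mesenchymal and REST cofactor lists are at 0. In the same 41, 37 and 34 neuronal genes, 10, 8 and 10 have sites called again alone, and 5, 5 and 5 have both kinds. Lists were chosen with earlier results of these data known.

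Some domains held several E13.5-only sites. Of the genes with any, 827 had 1, 113 had 2, 31 had 3 and 12 had 4. Fam19a5, which encodes a secreted protein of the brain, had 10 over 1756 kb, of which 8 held an RE1 match and 6 were also given to its neighbour Brd1. Camta1 and Gm13090 shared 6, all with a match, beside 2 sites called again. Speer4b had 6 and 5530401A14Rik 5, with no site called again. Within 50 kb of an E13.5-only site there was another in 13.6% of cases and a site called again in 9.21%.

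Of a list of neural and islet microRNAs, 23 genes were found in the annotation. A site called again lay within 50 kb of 6 of the 23, and an E13.5-only site within 50 kb of 3. This difference was not tested. The 3 genes near E13.5-only sites are described here. Mir375, the main islet microRNA, was 9000 bp from the Fev site. Mir124a-3, a neuronal microRNA, was 0.507 kb from a site that scored 17 and 12. Mir139 was 37.3 kb from one that scored 11 and 12. Among all microRNA genes, 45 of 1577 (2.85%) had an E13.5-only site within 50 kb.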

How the data were processed

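REST ChIP-seq peaks of 2 E13.5 and 3 E18.5 wild-type mouse pancreas libraries were analysed. Per the study's methods and the submitters' notes, 50-bp reads were aligned to mm9 with Bowtie2 2.2.5, filtered on mapping quality, and peaks were called against input DNA with MACS2 2.1.0. The methods describe calling on pooled E13.5 replicates at a stricter rate. The lists used here differ on both points, since each library has its own deposited list, at a false discovery rate of 10% by its name, with a score for each peak, a whole number of unstated unit that the authors left undescribed. No source used here gives the depth, so intervals (exact 95% binomial) cover counting error over sites only.

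Overlapping entries of a library were merged, entries on unplaced sequence (4 to 13 per library) were left out, and peaks of different libraries overlapping by 1 bp or more were joined. A 21-bp RE1 consensus was derived from the central 200 bp of all sites in both E13.5 libraries, E13.5-only sites included, and searched on both strands of 500-bp windows. A step that re-centres the consensus was added after its first derivation had ended a base short. Starts and genes came from GENCODE M1, with 1 entry per symbol. One gene name of the lists (Sox1) was not matched.

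Features that the calls did not use went into Fisher exact tests (two-sided), adjusted by Benjamini-Hochberg over 8 tests, and with exact conditional tests over 5 score quintiles, adjusted over 3. The tests by RE1 position and of paired arms were added after the data were seen. Permutation tests planned for GC content and mismatches would resample sites, which are not replicates, and were replaced by descriptions. A planned comparison of repeat bases was not run, since the genome used does not mark repeats. Members, gene lists and tests were chosen with earlier results of these data known. Named sites were the 12 of highest mean E13.5 percentile, up to 6 genes per list by their best site, up to 6 genes with 3 or more sites, and the 3 sites nearest each edge of the rule. Others are named as list members. Procedures were tested on simulated data with Python 3.11.15 and SciPy 1.17.1.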

Additional observations from a re-analysis of the deposited data

How the results depend on the processing

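Depth is unknown, so list length limits each comparison. The number of E13.5-only sites fell to 456 with the upper 75% of scores and to 19 with 223 peaks per library, and ranged from 735 to 912 when a library was left out. With those 19 sites the shares were 68.4% for RE1, 47.4% promoter-proximal and 10.5% CpG-rich, and 33 genes had a site. Differences from sites called again were then -7.64 points for RE1, 11.8 for arms, -11.1 promoter-proximal and -19.1 CpG-rich, and those from single-library sites -12.5 for RE1 and -0.251 promoter-proximal, none past the test (adjusted p of 0.816 to 1). The upper 75% of scores gave 6.59 (RE1) and -1.11 (promoter-proximal) against single-library sites, and 4.99 for arms against sites called again.

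The RE1 share was 62.5% at 4 and 83.6% at 6 mismatches, and its difference from sites called again at 4 was -6.93 points. Leaving out libraries, that difference ranged from -3.82 to 3.45 and the share from 71.6% to 77.5%. The share near starts was 13.9% within 1 kb, 40.9% within 10 kb and 25.4% with protein-coding starts. The CpG-rich share ranged from 5.29% to 8.01% without single libraries, and its difference from single-library sites from -1.71 to 0.202. The difference in arms from sites called again turned to 2.58 with sites of 2 or more E18.5 libraries and to 1.57 at 6 mismatches, and ranged from -2.80 to 1.30 without single libraries. Genes with a site numbered 587 with extension to 100 kb and 173 within 5 kb. The cause of these changes was not tested. Of 223 alternative values, 183 kept their direction and side of the threshold or moved less than their error. The promoter-proximal and CpG-rich differences from sites called again lost their calls only with 223 peaks per library.

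No paired analysis was possible because E13.5 and E18.5 libraries with the same letter are separate pools of embryos, and no test was made over libraries.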

Other observations

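Of 314 sites called in E18.5 libraries alone, 1 (0.318%) held an RE1 match, against 77.1% of E13.5-only sites, and 311 were called in a single library. They made up 189 of 530 sites in library A, 126 of 413 in B and 3 of 223 in C. Sites of E18.5 alone were promoter-proximal in 15.9% and CpG-rich in 2.23% of cases, with a mean GC content of 41.4%.

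The share of E13.5-only sites among sites of both E13.5 libraries ran from 51.2% on chromosome 13 (21 of 41) to 73.3% on chromosome 16 (22 of 30) among the autosomes, with 3 of 4 sites on chromosome X. These shares were not tested.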
